A study of Arabidopsis thaliana with 8 samples.

Results

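The genes described here lay on the positive side of the ratio between PK12 and non-transformed Arabidopsis thaliana on every array of 10-day plants. They were chosen by their 10-day values: the log2 ratio, averaged over the expressed sequence tags (ESTs) of a gene, had to be at least 1.5-fold on each of the 4 arrays. Of 3517 named genes tested, 152 met this threshold (4.32%). The selection set 13 of them aside, 4 by family (CYP71B19, GSTU27, BZIP60 and TRM28) and 9 named singly, which left 139 members. The remaining families to be set aside by name (UGT, ALDH, SCPL and MYB) had no gene past the threshold under such a symbol. GT72B1, also known as UGT72B1, stayed in because its symbol does not begin with UGT. Since these values made the choice, the 10-day ratios below are a description and were not tested.

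Both groups of arrays compared plants that overexpress PK12 with plants that were not transformed, grown under long days for 21 days (4 arrays) or for 10 days (4 arrays of another type). Each array carried total RNA of both kinds of plant, the PK12 plants in channel 2 and the non-transformed plants in channel 1. Arrays 1 to 4 have titles ending in b100, b90, t100 and t90 at 21 days and in 56, 57, 60 and 61 at 10 days. The labels speak of 2 independent experiments among the 4 arrays of an age without saying which arrays share one or what the titles stand for, so the spread between arrays is partly technical. They give no promoter, line number, accession, organ or pooling of plants. Dyes and numerator are not given either. A positive value would mean more transcript in PK12 plants if channel 2 was the numerator, and less if channel 1 was, and every positive or negative below refers to the deposited ratio.

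PK12 is a protein kinase of the LAMMER family, known from tobacco, whose members sit in the nucleus and phosphorylate the serine- and arginine-rich proteins that guide splicing. Splicing factors act on many transcripts, and a change in splicing can alter how much of a transcript survives. An EST probe reports the sum of the transcripts that hybridise to it and cannot separate splice forms, so the values below are ratios of abundance. The one LAMMER kinase measured by name, AME3, was at 0.25 ± 0.28 (log2 ratio, SD, n = 4) at 10 days and was no member. PK12 itself was not analysed here.

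Arrays have no depth in counts. How finely a ratio is known here depends on the 4 arrays of an age and on the 2 independent experiments among them. Across named genes the 10-day arrays correlated at Pearson's r from 0.231 to 0.614 and the 21-day arrays at -0.068 to 0.347, genes not being independent replicates. No member was on the organ lists for root, seed, flower or green leaf. Of the green leaf list 6 of 11 genes were measured, all with negative 10-day means, from -1.94 (RCA) to -0.70 (SBPASE). Of the root list 3 of 6 were measured, with means from -0.65 (BGLU21) to -0.16 (JAL33), of the seed list only PAP85 (1 of 8, at 2.88 ± 2.20), and of the flower list 0 of 5. PAP85 met the threshold with 0.73, 1.23, 4.7 and 4.85 on arrays 1 to 4 and is no member only because it was set aside by name. Levels cannot be read from ratios, so the labelled material, plants with no organ named, could not be checked by its markers. In such bulk RNA, fewer cells of a type and less RNA per cell cannot be told apart, and the part of these lists in the members' ratios was not tested.

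At 10 days the 139 members had means from 0.72 to 2.73 with a median of 1.26, against a median of 0.04 over all 3517 genes. A mean of 2 or more, which is 4-fold, was reached by 10 members, 102 had a mean from 1 to 2, and 27 stayed under 1. On every single array 42 members were at least 2-fold. All 139 passed limma's test against a ratio of 1 (adjusted p from 0.00205 to 0.034), where 8.05% of all genes passed on the positive side and 5.0% on the negative side, but the rule used these arrays and nothing follows from that count. Just inside the threshold stood AT4G36640, AT4G13780 and SDH1-1, whose lowest arrays read 0.593, 0.596 and 0.597. Just outside were UGT72E2, AT3G57880 and AT4G13860, with lowest arrays of 0.580, 0.578 and 0.572.

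**Figure D1:**
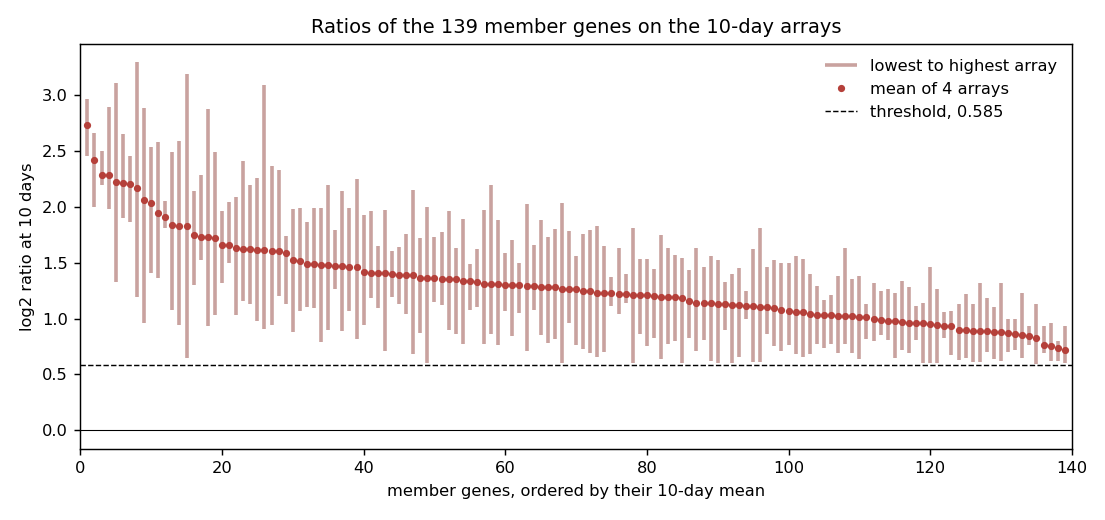
Log2 ratios of the 139 members on the 10-day arrays. Each bar spans the lowest to the highest of the 4 arrays of a gene, points are means, and the dashed line marks the 1.5-fold threshold. Means run from 2.73 down to 0.72, and the bars of neighbouring genes overlap over most of the range.

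The highest mean was that of AT5G63940, which had 2.96, 2.45, 2.75 and 2.77 on arrays 1 to 4. AT4G09620 varied less, with 2.19, 2.50, 2.22 and 2.20. RAP, a chloroplast protein needed for the maturation of plastid ribosomal RNA, read 2.66, 2.00, 2.65 and 2.37. These 3 genes, with AT3G02360 (2.28 ± 0.42) and AT2G18690 (2.21 ± 0.35, SD, n = 4), had the highest lowest-array values of all members. Their lowest arrays lay between 1.90 and 2.45, above the upper quartile of the members' means, 1.48.

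Other members of the top 10 were uneven across the arrays. GT72B1, a glucosyltransferase that attaches glucose to phenolic compounds, read 3.29, 2.33, 1.85 and 1.19. AT5G17760 was at 3.11 and 2.92 on arrays 2 and 4 but at 1.33 and 1.53 on arrays 1 and 3. AT4G26950 dropped to 0.96 on array 3 from a mean of 2.06 ± 0.81, while AT5G56220 stayed between 1.86 and 2.45 and AT1G08940 between 1.41 and 2.53. The arrays of these genes overlap, so their order is not resolved.

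Over all members the SD between the 10-day arrays had a median of 0.35, close to the 0.39 of all genes. Array 1 was the highest array for 55 members, array 2 for 40, array 3 for 26 and array 4 for 18. The spread of the other genes on these arrays followed the same order, with SDs of 0.79, 0.69, 0.67 and 0.58. In 46 members both array 1 and array 2 lay above arrays 3 and 4, as in FER, and in 21 members the reverse held, as in OSM34. This split was not counted over all genes, so it cannot be read as a trait of the members. A difference of over 1.5 between lowest and highest array was found in 7 members, and one of at most 0.5 in 27. The smallest SD of all belonged to AT3G21690, with 0.93, 0.84, 0.85 and 0.76, chosen here for that SD.

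Function could be read for few members. The gene table gave a symbol or a descriptive name for 20 of the 139, counting AT5G55580, whose synonym mTERF9 was picked out by eye, and 119 are known here by locus code only. Among all genes tested 15.4% carried a symbol other than the locus code. Sorted by the words in those names, the largest group was redox enzymes and oxidases, with 6 members among 49 measured genes (12.2%, against 3.95% of all genes). Cell wall genes followed with 2 of 14 and other metabolic enzymes with 1 of 69. By these words alone no member fell into the classes for transcription and chromatin (17 genes measured), chloroplast and photosynthesis (15), protein folding and turnover (28), vesicle traffic and cytoskeleton (18), membrane transport (11), lipids (9), RNA processing (5), defence and stress (5), or kinases and receptors (4). A count of 0 here does not mean that no member has such a role: FER, ATERDJ3B and RAP have no descriptive words in the table, and OSM34, LEA4-5 and NET1C have words of no class. The classes hold only genes with such words, no test was made over them, and some redox and transcription genes had been set aside by family name. Their words were narrowed after the members had been seen, so the shares describe the list only.

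**Figure D2:**
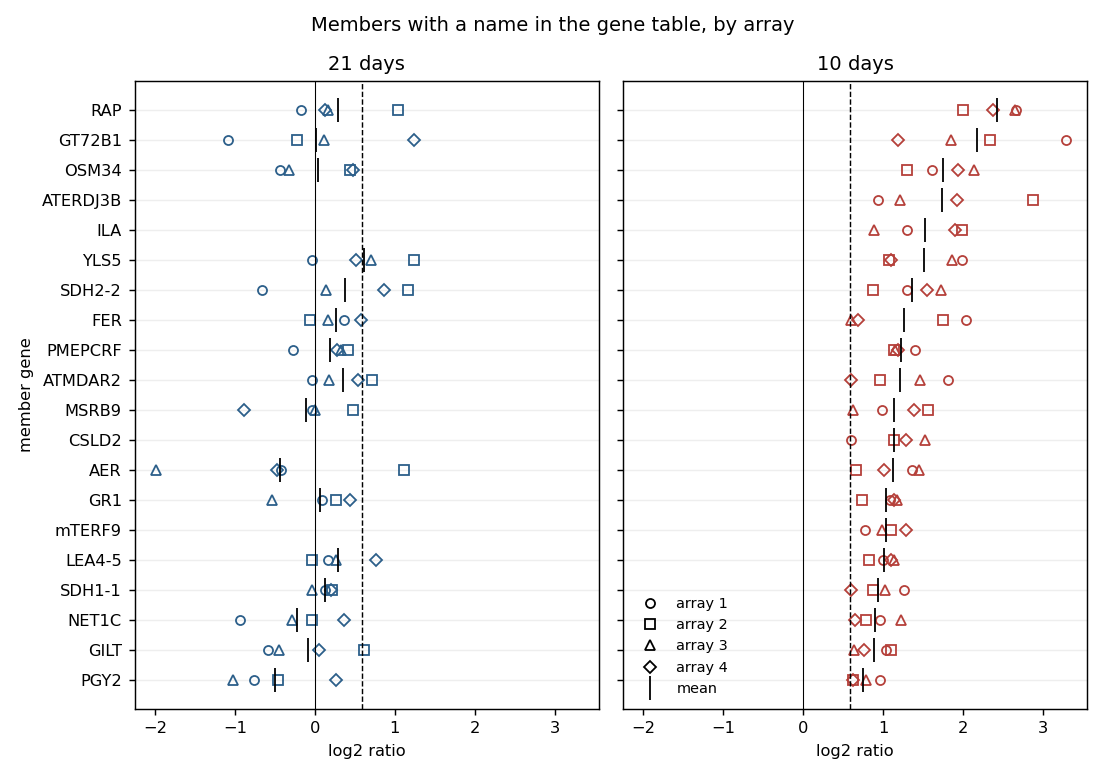
Log2 ratios of the 20 members with a name in the gene table, on each 21-day array (left, blue) and each 10-day array (right, red). Symbols mark arrays, the vertical tick the mean, and the dashed line 1.5-fold. At 10 days all points lie to the right of that line by the choice of the members, whereas at 21 days they spread on both sides of 0, from -1.99 to 1.24, and 4 genes have no 21-day value.

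Of the whole redox class, 13 of 49 genes passed limma at 10 days on the positive side (26.5%, against 8.05% of all genes) and 3 on the negative side (6.12%, against 5.0%), with a class median of 0.11 against 0.04 over all genes. The 13 include the 6 members, which were chosen on these arrays, and the class words were narrowed after the members had been seen. These shares are therefore a description. The members of the class act on several substrates. SDH2-2 and SDH1-1 are the iron-sulphur and flavoprotein subunits of succinate dehydrogenase, the mitochondrial complex shared by respiration and the citric acid cycle. SDH2-2 read 1.30, 0.87, 1.72 and 1.55, and SDH1-1, averaged over 3 ESTs, 1.26, 0.87, 1.02 and 0.60. The means of these 3 ESTs ran from 0.24 to 1.39, and 2 of them were above 0 on every 10-day array. SDH2-1, the other iron-sulphur subunit measured under an SDH symbol, had 1.10, 1.5 and 0.93 on arrays 1, 3 and 4. It missed the threshold on array 2 with 0.20. All 3 subunits measured under such a symbol were thus on the positive side of every array, SDH2-2 and SDH1-1 by their choice. Subunits known by locus code only were not looked for. SDH2-1 and the other relatives of members given below were picked after their values were seen.

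GR1, the glutathione reductase of cytosol and peroxisome, which returns oxidised glutathione to its reduced form, had 1.08, 0.74, 1.17 and 1.13. The organellar glutathione reductase, listed as GR, pointed the other way with -1.26, -0.77, -0.29 and -0.50 and did not pass (limma adjusted p = 0.0622). The arrays of the 2 genes did not overlap, but GR1 had been chosen for being high on every array. ATMDAR2, a monodehydroascorbate reductase, which regenerates ascorbate alongside glutathione reductase, read 1.81, 0.96, 1.46 and 0.60, and its name carries none of the words that define the redox class.

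MSRB9 belongs to the methionine sulfoxide reductases, which repair oxidised methionine in proteins. Its arrays read 0.98, 1.56, 0.62 and 1.38. Of its measured relatives, MSRB5 was at 0.72 ± 0.33 (limma adjusted p = 0.0477), MSRB4 at -0.67 ± 0.57 and MSRA5 at -0.04 ± 0.34, the last 2 not past the threshold. MSRB9 was positive on every array by its choice, MSRB5 was positive on every array too, and MSRB4 was negative on every array. GILT, a thiol reductase, was at 0.88 ± 0.22 and AER, which reduces reactive alkenals with NADPH, at 1.12 ± 0.36 (SD, n = 4).

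**Figure D3:**
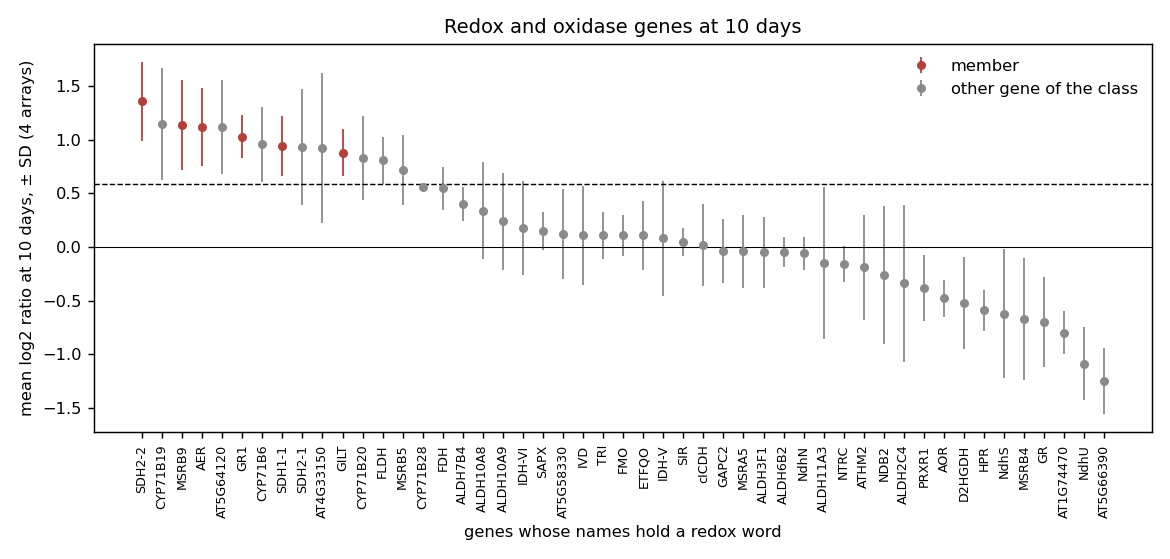
Mean log2 ratio at 10 days of the 49 genes whose names hold a redox word, with SD over 4 arrays as bars. Members are red, other genes grey, and the dashed line marks 1.5-fold. The 6 members lie between 0.88 and 1.36, among grey genes of similar height that missed the threshold on some array or were set aside by name, while the lowest gene of the class, AT5G66390, is at -1.25.

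AER stood in a row of neighbours. AT5G16990 and AT5G17000, which lie within 3 protein-coding genes of AER in the gene table, were members too. AT5G16990 read 1.73, 0.78, 1.61 and 1.01 on arrays 1 to 4, AT5G17000 1.16, 0.60, 1.39 and 1.54, and AER 1.36, 0.66, 1.45 and 1.01. All 3 genes were lowest on array 2. A further 3 pairs of members lay as close: AT2G27730 with AT2G27740, AT3G02340 with AT3G02360, and AT2G18670 with AT2G18690. Of the 117 measured genes within 3 genes of a member, 9 were members themselves (7.69%), against 3.95% of all genes, and the other 108 had a median 10-day mean of 0.03. Neighbouring genes can be copies of one another, and whether such ESTs hybridised to each other's transcripts was not tested. These neighbours were singled out after their values were seen.

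The cell wall class held 2 members. PMEPCRF, a pectin methylesterase, which alters how firmly pectin gels, was nearly even with 1.40, 1.14, 1.15 and 1.19. CSLD2, a cellulose synthase-like protein of tip-growing cells such as root hairs, had 0.60, 1.13, 1.52 and 1.28. In the class as a whole 2 of 14 genes passed limma at 10 days on the positive side (14.3%, against 8.05% of all genes). Both are these members, which were chosen on these arrays. On the negative side 2 passed (14.3%, against 5.0% of all genes). FER, the FERONIA receptor kinase, which senses peptides and the state of the wall, read 2.03 and 1.75 on arrays 1 and 2 but 0.60 and 0.68 on arrays 3 and 4. Its positive sign on all arrays was fixed by its choice, and its size differed between them.

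The next 4 members fall into none of the word classes and are put side by side for reading only. ATERDJ3B, a co-chaperone of the lumenal binding protein in the endoplasmic reticulum, had 0.93, 2.87, 1.21 and 1.92. ILA (ILITHYIA), related to the yeast translation regulator GCN1 and known for a part in plant immunity, was at 1.30, 1.98, 0.88 and 1.90. PGY2 (PIGGYBACK2), a protein of the large cytosolic ribosomal subunit, read 0.96, 0.62, 0.78 and 0.62, the lowest mean of the named members. PGY1, another ribosomal protein of that mutant series, was at 0.52 ± 0.09 and missed the threshold. AT5G55580, which the table also calls mTERF9, of a family that acts in organelle gene expression, was at 1.03 ± 0.22 (SD, n = 4).

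The remaining named members share no class. OSM34, an osmotin of the thaumatin family, had 1.61, 1.30, 2.14 and 1.94. LEA4-5, a late embryogenesis abundant protein that accumulates in drying tissue, was nearly flat at 1.0, 0.82, 1.13 and 1.10. YLS5, a DJ-1 family gene found through its expression in yellowing leaves, read 1.99, 1.07, 1.86 and 1.10. NET1C, of the Networked family of actin-binding proteins, was at 0.90 ± 0.25, its relative NET1D at 0.57 ± 0.29 and NET4B at 0.13 ± 0.30, neither of the last 2 past the limma threshold (adjusted p = 0.0729 and 0.661).

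How many probes stood behind a gene differed. A single EST carried 104 members (74.8%, against 70.7% of all genes), 2 ESTs carried 26, and 3 or 4 carried 9. The 35 members with several ESTs had 80 in all, and 75 of these had a mean above 0, a figure that the choice of members favours. In 11 of the 35 each EST was at 1.5-fold or more on all 4 arrays. AT5G42050 was one of them, its 3 ESTs having means from 0.84 to 1.30, as was AT2G27730, with 3 ESTs from 1.11 to 1.42. AT5G17380, with 4 ESTs the best covered member, had means from 0.21 to 1.13.

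In 5 members an EST had a mean below 0, so the gene's value rests on the others. AT1G03106 joined ESTs at 4.14 and -0.33, and AT4G25580 at 2.81 and -0.11. The 3 ESTs of OSM34 ran from -0.08 to 2.66, those of MSRB9 from -0.30 to 2.01 and those of AT3G13670 from -0.13 to 2.55. Which transcripts such discordant ESTs report could not be told from the files. AT1G03106, AT4G25580 and AT3G13670 are given here for this split, seen in their values.

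The arrays of 21-day plants played no part in the choice of the members, so the members can be tested there. Their shares on the positive side lay near those of all genes. Of the 139 members 102 were measured at 21 days, each on an EST also printed on the 10-day arrays. Their 21-day means had a median of 0.05 (quartiles -0.11 and 0.28), against 0.02 (quartiles -0.17 and 0.20) for the 2811 other named genes. A mean above 0 was found in 59 of 102 members (57.8%), and in 52.8% of all 2913 genes. For these 102 the 10-day median was 1.24.

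**Figure D4:**
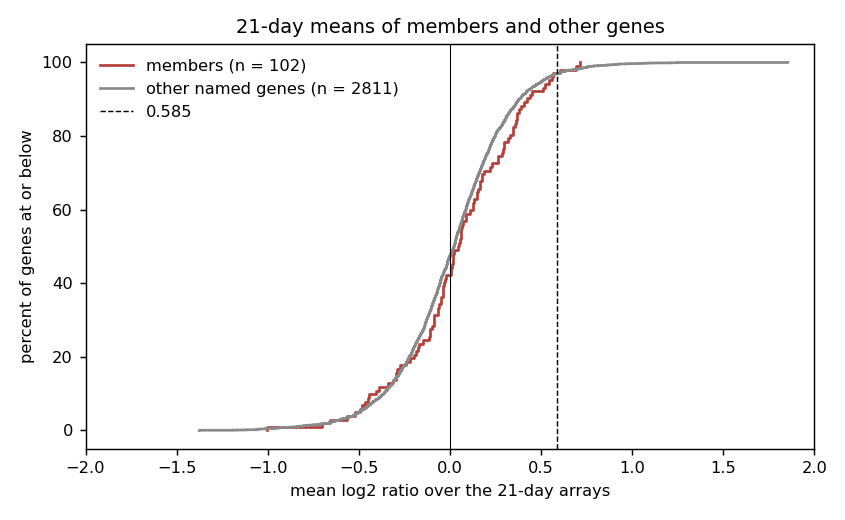
Cumulative share of genes by mean log2 ratio over the 4 arrays of 21 days, for the 102 members measured there (red) and the 2811 other named genes (grey). The vertical lines mark 0 and 1.5-fold. The curves run close together, with medians of 0.05 for members and 0.02 for the others, and both lie mostly left of the 1.5-fold line.

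No member passed limma at 21 days, nor did any of the 2913 genes (0.0%), with adjusted p-values of the members from 0.443 to 0.995. At an unadjusted p under 0.05 there were 11 members of 102 (10.8%), 6 positive and 5 negative, beside 9.13% of all genes. Robust eBayes and a random block for pairs of arrays also called 0 members. A mean of 1.5-fold or more was reached by 3 members (2.94%, against 3.06% of all genes), and 0 members were at 1.5-fold or more on all 4 arrays, as were 0.137% of all genes. The upper 95% limit of limma's interval lay under 1.5-fold for 57 of the 102 members (55.9%), and for 59.6% of all genes. For the other 45 a ratio as high as 1.5-fold at 21 days was within the error of 4 arrays.

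Above 0 on all 4 arrays of 21 days stood 9 members (8.82%), beside 8.51% of all genes. Below 0 on all 4 stood 7 (6.86%), beside 8.31%. The first count rests on array 1. Without it, 28 members were above 0 on the 3 arrays left (27.5%), and so were 17.5% of all genes. Without array 2, 3 or 4 the members' shares were 13.7%, 13.7% and 9.8%, against 13.8%, 15.0% and 13.6% of all genes. Each of the 102 members had a lower mean at 21 than at 10 days, and in 75 every 21-day array lay below every 10-day array, which held for 8.07% of all genes. The choice of members by high 10-day values fixes much of both counts, and the difference between ages was not tested. The smallest SDs of the 9 positive members were 0.14 for AT2G45300, given below, and 0.15 for AT5G19440, at a mean of 0.29. AT4G17670 had 0.14, 0.30, 0.13 and 0.49 on the 21-day arrays. AT3G58550, at 0.52 ± 0.42, and AT1G09690, at 0.41 ± 0.38, were positive throughout but uneven. AT5G19440, AT4G17670, AT1G09690 and AT3G58550 were picked after their values were seen.

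Among the named members YLS5 had the highest 21-day mean, with -0.04, 1.24, 0.70 and 0.52 at 21 days, against 1.99, 1.07, 1.86 and 1.10 at 10 days. Its ranges overlapped, and it did not pass at 21 days (0.61 ± 0.53, limma adjusted p = 0.52). SDH2-2 had -0.66, 1.17, 0.14 and 0.86, and SDH1-1 0.13, 0.22, -0.04 and 0.20. GR1 was at 0.07 ± 0.43, ATMDAR2 at 0.35 ± 0.34, MSRB9 at -0.11 ± 0.56 and GILT at -0.09 ± 0.55 (SD, n = 4). AER ranged from -1.99 to 1.11. None of these 7 genes was past the threshold at 21 days (limma adjusted p from 0.645, for ATMDAR2, to 0.95, for GR1).

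Of the 5 members with the highest lowest arrays at 10 days, 4 were measured at 21 days. AT5G63940 read -0.71, 0.22, 0.01 and 0.23 at 21 days, RAP -0.17, 1.04, 0.17 and 0.13, and AT3G02360 -0.55, 0.57, 0.25 and -0.07. All 12 of these values are below each gene's own lowest 10-day array. The naming of these genes for their high lowest arrays fixes much of that. Over all genes, 8.07% had every 21-day array below every 10-day array. GT72B1, from -1.08 to 1.24, and PGY2, with -0.76, -0.46, -1.02 and 0.26, varied more. AT2G18690 read -0.20, 0.92, 0.80 and 0.52 at 21 days (0.51 ± 0.50), and limma's 95% limits for RAP, -0.23 and 0.82, also reach past 1.5-fold. OSM34 was at 0.04 ± 0.49, FER at 0.26 ± 0.27, PMEPCRF at 0.19 ± 0.31 and LEA4-5 at 0.29 ± 0.33 (SD, n = 4). AT4G09620, AT5G56220, ATERDJ3B, ILA, CSLD2 and mTERF9 have no 21-day value here.

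At the upper end of the 21-day means, AT2G45300 was the most even, with 0.40, 0.50, 0.65 and 0.69 (0.56 ± 0.14) at 21 days, against 0.98 ± 0.26 at 10 days. AT5G52540 had 0.51, 1.0, 0.33 and 0.43. These 2 members were positive on all 4 arrays of 21 days, as were 8.51% of all genes. They did not pass the 21-day test (limma adjusted p = 0.502 and 0.514), and on the 10-day arrays they were positive by their choice. The 2 ESTs of AT2G45300 differed at 21 days, with means of 0.05 and 1.07. AT1G72910, at the top with a mean of 0.71, read -1.16, 1.84, 0.28 and 1.88, and AT4G21580 was at 0.69 ± 0.86, both carried by some of the arrays.

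At the lower end AT3G17710 had -1.73, -1.09, -0.49 and -0.71 (-1.0 ± 0.54, limma adjusted p = 0.443) at 21 days, against 1.34 ± 0.52 at 10 days. AT3G26450 followed with -1.15, -0.62, -0.59 and -0.26, both of its ESTs being negative. AT2G39710 was the most even, with -0.53, -0.55, -0.66 and -0.33. These 3 genes were negative on each 21-day array, as were 8.31% of all genes, and positive on each 10-day array by their choice. AT3G60420 at -0.70 ± 1.14 and AT3G46700 at -0.57 ± 0.45 had 1 array above 0.

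By array, members leaned apart at 21 days. On array 1 the median of the 102 members was -0.17 and 35.3% were above 0, against a median of 0.00 and 50.1% for the other genes. On arrays 2, 3 and 4 the medians of the members were 0.22, 0.08 and 0.21, against 0.03, -0.01 and 0.01 for the others. The shift was thus negative on array 1 and positive on arrays 2, 3 and 4, and the SD of the 4 medians, 0.183, exceeds their mean. Array 1 also stood apart over all genes, correlating with arrays 2, 3 and 4 at Pearson's r of -0.068, 0.0796 and -0.0535, whereas arrays 2 and 4, titled b90 and t90, correlated at 0.347. Without array 1 the median of the members was 0.12.

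**Figure D5:**
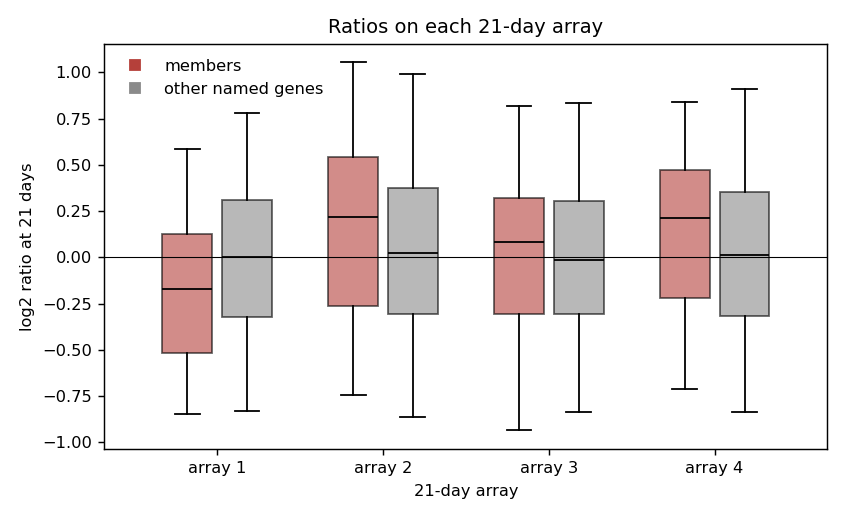
Log2 ratios on each array of 21 days for the 102 members (red) and the 2811 other named genes (grey). Boxes span the quartiles with the median as a line, and whiskers reach the 5th and 95th percentiles. Members sit below the others on array 1 (medians -0.17 and 0.00) and above them on arrays 2 and 4 (0.22 and 0.21, against 0.03 and 0.01).

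Across the 102 members the 21-day and 10-day means correlated at Pearson's r of 0.0867, within a range narrowed by the choice, and across all 2913 genes at 0.058, the points of an age sharing their 4 arrays. Position on the array, for which EST order stood in, moved little with membership. The median ratio of the 36 ESTs on either side of a member's ESTs was centred on 0.03 at 21 days and 0.03 at 10 days, against 0.02 and 0.00 for all genes. When that local median was taken away, 120 of the 139 members still met the rule. For single members it ran from -0.33 to 0.31 at 10 days. The highest was that of LEA4-5, whose mean went from 1.01 to 0.70 without it. The lowest was that of ATERDJ3B, whose mean went from 1.73 to 2.07.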

How the data were processed

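Units were worked out from the numbers: each column the authors deposited holds log10 ratios. Raising 10 to a value gave a ratio of 3 decimals for 100% of ratios under 3 on 7 arrays. On the first array of 10-day plants most values (96.9%) carry 2 decimals, and its 367 values nearest 0 all gave such ratios, which base 2 did for 4.09%. The sources used here do not give scanner, dyes, numerator, background correction or filters on spots.

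Values were converted to log2 and centred on each array's median. ESTs with 4 values and a single gene in the platform annotation were kept. Entrez identifiers were matched to the TAIR10.1 gene table for 5209 of 5216 such ESTs at 10 days and 3905 of 3910 at 21 days, giving 3517 and 2913 genes after averaging. Names come from that table, and no coordinates or sequences are given. Each age was fitted over all genes by limma 3.58.1 (R 4.3.3) as an intercept with eBayes, two-sided, with Benjamini-Hochberg adjustment at 0.05. The procedure was tried on simulated data with independent arrays. That trial cannot show how the test behaves where arrays share an experiment. The difference between ages was not tested.

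The members, word classes and organ lists were chosen with earlier results of these data known. The words that define the classes were narrowed after the gene table and the members had been seen; before that, GILT matched a transcription word inside interferon, and it now counts as redox. Genes named are the 10 highest 10-day means, the 5 highest lowest arrays, the 10 with most ESTs, the 5 highest and lowest at 21 days, the 3 nearest the threshold on either side, the organ lists, up to 6 members of a class and members named in the gene table. Others were named after their values were seen, as stated beside them. Alternatives tried were no centring, scaling, quantile normalization, removal of a local median over 36 ESTs on either side, the median over ESTs, single-EST genes, ESTs in place of genes, robust eBayes, other thresholds, random blocks for the 3 pairings of arrays (statmod 1.5.0) and leaving out each array.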

Additional observations from a re-analysis of the deposited data

Results flagged for a closer look

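In 3 named members 1 array stood far from the other 3. AT1G08940 read 1.91 on array 1 of 21 days, the other arrays lying between -0.35 and -0.10. AT4G09620 was at 2.50 on array 2 of 10 days, with the others between 2.19 and 2.22, and AT4G37520 at 2.28 on array 4 of 10 days, with the others between 1.52 and 1.61. Such gaps turn up by chance in about 1 of 20 groups of 4, and 36 named members were examined at 21 days and 44 at 10 days.

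A further 7 members had every 21-day array below 0 and, by their choice, every 10-day array above 0. Their 21-day means were -1.0 for AT3G17710, -0.66 for AT3G26450, -0.52 for AT2G39710, -0.48 for AT5G10650, -0.34 for AT5G44580, -0.30 for AT3G22230 and -0.15 for AT4G10970. The difference between ages was not tested for them, and 8.31% of all genes were below 0 on every 21-day array.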

How the results depend on the processing

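No setting called a gene at 21 days, among them the 4 fits without 1 array, and the members' 21-day median stayed between 0.01 and 0.12. Members by the rule numbered 104 to 157 under the other normalizations and EST rules, of which 104 to 139 were among the 139. They numbered 162 to 219 without 1 array of 10 days (219 without array 4), 182 at a log2 ratio of 0.5, 42 at 2-fold on every array and 428 with a mean at the threshold and every array above 0. Members above 0 on all arrays of 21 days numbered 10 to 28 when 1 array was left out, which leaves fewer arrays to agree. Of the 10-day calls, 459 became 803 with the local median removed, 270 with single-EST genes, 2031 with ESTs, 263 with a random block that pairs array 1 with 3, 2021 with one that pairs array 1 with 4, whose arrays were less alike within than between pairs (correlation -0.796), and 99 to 195 without 1 array. The cause of these moves was not tested. Values of single named members moved by more than their SD in 2 of 348 cases at 21 days and 5 of 423 at 10 days, and the sign changed in 28 of the 348 (15 of 36 members) and 0 of the 423. The sign changes at 21 days include AT1G08940 (-0.22 without array 1, against 0.32), AER (0.07 without array 3, against -0.44), GT72B1 (-0.40 without array 4, against 0.01) and AT5G63940 (0.16 without array 1, against -0.06). No paired analysis was possible because both kinds of plant share each array and the labels do not say which arrays share an experiment; the random blocks tried all 3 pairings of arrays instead. Signal over background could not be examined from ratios.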
